A study of Homo sapiens with 4 samples.

Results

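The genes described here encode the hypoxia-inducible factor (HIF) subunits and the coregulators that act on their transactivation domains. The list holds 9 genes, taken by symbol from the 58288 genes of the RNA-seq tables: the alpha subunit genes *HIF1A*, *EPAS1* and *HIF3A*, the beta subunit genes *ARNT* and *ARNT2*, the coactivator genes *EP300* and *CREBBP*, and *CITED2* and *CITED4*, whose products compete for the same coactivators. HIF1α ChIP-seq peaks in or near these genes were added by gene, because the expression tables and the peak lists lie on different genome builds. HK2 cells derive from the proximal tubule of a human kidney and grow without limit in culture, and FG-4592, also called roxadustat, blocks prolyl hydroxylation of HIFα, the step that leads to its destruction. The data comprised 2 RNA-seq and 2 HIF1α ChIP-seq libraries, and in all 4 of them HK2 cells received FG-4592, dissolved in DMSO, at 50 μM. The methods of the study give 6 h of treatment for RNA-seq and the same condition for ChIP-seq. Untreated cells were not analysed here, so every value is a level under FG-4592 and no change on treatment was computed. Nothing in the labels says whether the replicates were separate cultures, so the spread between them may be technical.

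HIF is a heterodimer of an oxygen-labile alpha subunit and a constitutive beta subunit, and it binds DNA at hypoxia-response elements. Once stabilized, the alpha subunit recruits the histone acetyltransferases p300 and CBP through its C-terminal transactivation domain, and CITED2, itself known as a HIF target, competes for the same domain of p300 and CBP. In kidney, HIF-1α is the form typically found in tubular epithelium, while HIF-2α is known from interstitial and endothelial cells.

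The cell label was checked against marker genes in FPKM, fragments scaled to transcript length and to library size, summed over the transcripts of a gene. Of 13 proximal tubule markers, 3 reached a mean FPKM of 1: *PAX8* (120.8 in replicate 1 and 114 in replicate 2), *GGT1* (62.3 and 58.5) and *SLC5A2* (2.59 and 1.70). The summed level of these 13 genes was 186 and 175. *LRP2*, *HNF4A*, *SLC22A6* and *SLC22A8* were listed at 0 in both libraries, and *CUBN*, *AQP1*, *ANPEP*, *SLC34A1* and *SLC5A1* were near 0, with no library value above 0.0914, so most defining markers of the differentiated proximal tubule were at or near 0. Epithelial markers were present in 5 of 6 cases, led by *KRT19* (184 and 177), with a summed level of 441 and 435, but *CDH1* was at 0.211 and 0.379. The mesenchymal markers *VIM* (1294 and 802) and *CDH2* (63.8 and 63.7) were both high, with a summed level of 1358 and 865, and *VIM* differed between the libraries. Markers of other nephron segments (0 of 5 genes at an FPKM of 1), podocytes (0 of 2) and endothelium (0 of 3) were at or near 0, as was the leukocyte marker *PTPRC*, while *CD68* stood at 33.6 and 31.5 and, of the fibroblast and mural markers, *COL1A1* at 38.7 and 38.7 and *PDGFRB* at 0.490 and 0.490. The erythropoietin gene *EPO* was listed at 0.

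The ChIP-seq replicates stood apart. Replicate 1 held 1689 peaks, with 32.9% of their bases in annotated exons, and replicate 2 held 16953 peaks, with 84.5%. The core ACGTG or GCGTG, on either strand, lay within 100 bp of the centre in 86.1% of 1661 replicate 1 peaks and 26.6% of 16648 replicate 2 peaks on assembled nuclear chromosomes. Peaks are therefore given for each replicate separately. The RNA-seq libraries had a depth of 4442 and 4202 Mb, as coverage multiplied by transcript length, and their tables hold no read counts.

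Of the 9 genes, 7 had a mean FPKM of at least 1, a level that 23.1% of all genes and 59.7% of 19658 protein-coding genes reached. In decreasing order these were *HIF1A*, *CITED2*, *EPAS1*, *EP300*, *CREBBP*, *ARNT* and *CITED4*, an order seen in both libraries, with no overlap between the library values of neighbouring genes. *ARNT2* and *HIF3A* fell below 1, and genes that reached a mean FPKM of 1 are called expressed from here on. Counting a single transcript per gene, the largest, changed the order in 2 places: the mean of *CITED2* (83.6) lay above that of *HIF1A* (52.3), and that of *CITED4* (6.21) above that of *ARNT* (4.68). The libraries agreed closely on most of the genes. The median absolute log2 ratio between replicates, with a pseudocount of 1, was 0.05 over the 9 genes and 0.13 over the 13467 genes whose mean FPKM reached 1. Over the 9 genes it was 0.07 with a pseudocount of 0.1 and 0.08 in TPM, the same measure scaled to a fixed total in each library. With only 2 libraries an SD is imprecise, and no test between genes was made.

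**Figure D1:**
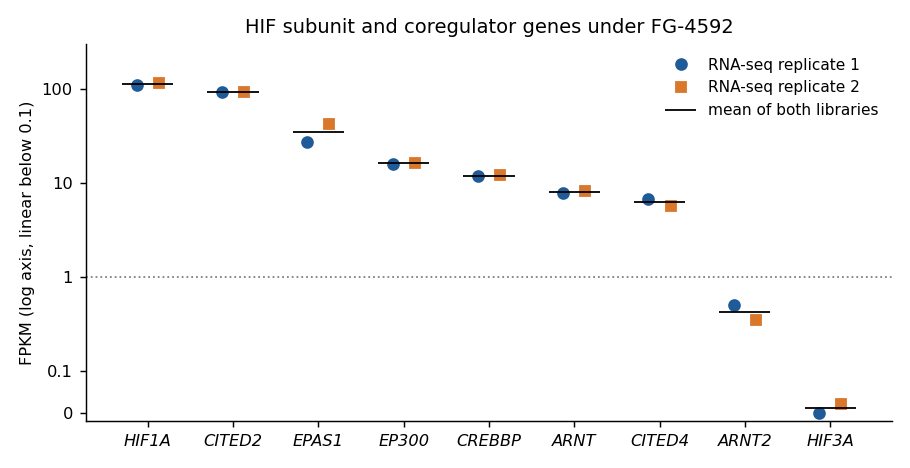
FPKM of each gene (vertical axis, logarithmic above 0.1) in RNA-seq replicate 1 (circles) and replicate 2 (squares), with the mean of both libraries as a line and an FPKM of 1 dotted. The 7 genes above the dotted line span mean levels from 6.21 to 112, and *EPAS1* is the one of them whose library values lie furthest apart.

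*HIF1A* (ENSG00000100644) encodes the alpha subunit of HIF-1, whose protein is the target of the antibody used for ChIP-seq. The level was 110.3 FPKM in replicate 1 and 114 FPKM in replicate 2 (112 ± 2.57, SD, n = 2), and the mean ranked 437 among all 58288 genes. *EPAS1* (ENSG00000116016) encodes HIF-2α, the alpha subunit of the second well-studied HIF. The level was 27.3 FPKM in replicate 1 and 42.4 FPKM in replicate 2 (34.9 ± 10.6, SD, n = 2), with rank 1829. *HIF3A* (ENSG00000124440), the gene of an alpha subunit with several splice forms, some of them inhibitory, was listed at 0 in replicate 1 and at 0.0197 in replicate 2. *HIF1A* was thus the higher of the main alpha subunit genes in both libraries, and *HIF3A* transcripts were nearly undetected at this depth.

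*HIF1A* exceeded *EPAS1* in FPKM 4.04-fold in replicate 1 and 2.69-fold in replicate 2 (3.36 ± 0.951, SD, n = 2). This ratio rested on how transcripts were counted. It was 2.21 with the largest single transcript of each gene and 4.34 with coding transcripts only. The direction was the same in every one of these counts, while the size of the ratio was not.

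The higher *EPAS1* total of replicate 2 lay in short transcripts that are not annotated as coding. The coding transcript EPAS1-201 stood at 25.8 FPKM in replicate 1 and 22.4 FPKM in replicate 2. The retained-intron transcript EPAS1-204, 559 bases long, had 0.179 and 14.0, and EPAS1-209, 551 bases long and with no defined coding sequence, was listed at 0 and at 4.64. All *EPAS1* transcripts not annotated as coding together summed to 1.53 and 19.9. The coding level was lower in replicate 2, at 0.870 times that of replicate 1, whereas the gene total was higher, at 1.55 times. Of the genes whose mean FPKM reached 1, 3.54% had a larger absolute log2 ratio between the libraries than the 0.61 of *EPAS1*. Whether these short transcripts were present in the cells, or took reads from other *EPAS1* transcripts in the estimate, was not tested.

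*HIF1A* showed the reverse arrangement, a stable total with a shifting division among its transcripts. HIF1A-202, the leading transcript, stood at 41.4 FPKM in replicate 1 and 63.1 FPKM in replicate 2. HIF1A-201, which lacks exon 14 of the leading transcript, had 40.6 and 17.3, and HIF1A-203, whose exon 2 begins 3 bases earlier, had 20.9 and 24.5. Coding transcripts summed to 103 and 105, so the libraries differed mainly in how coverage was shared between HIF1A-202 and HIF1A-201. Coverage of exon 13, which all 3 transcripts contain, was 799 and 872 reads per base, and that of exon 14, which HIF1A-201 lacks, was 819 and 839. HIF1A-201 was assigned 11.8% and 13.3% of the coverage of exon 13 but 45.9% and 15.6% of that of the last exon. At exon 2 its share was 23.3% and 10.2%. The share of this transcript was therefore similar in both libraries at exon 13, next to the exon it skips, and lower in replicate 2 at exon 2 and the last exon. Whether the division of *HIF1A* transcripts differed in the cells or only in the estimate was not tested.

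**Figure D2:**
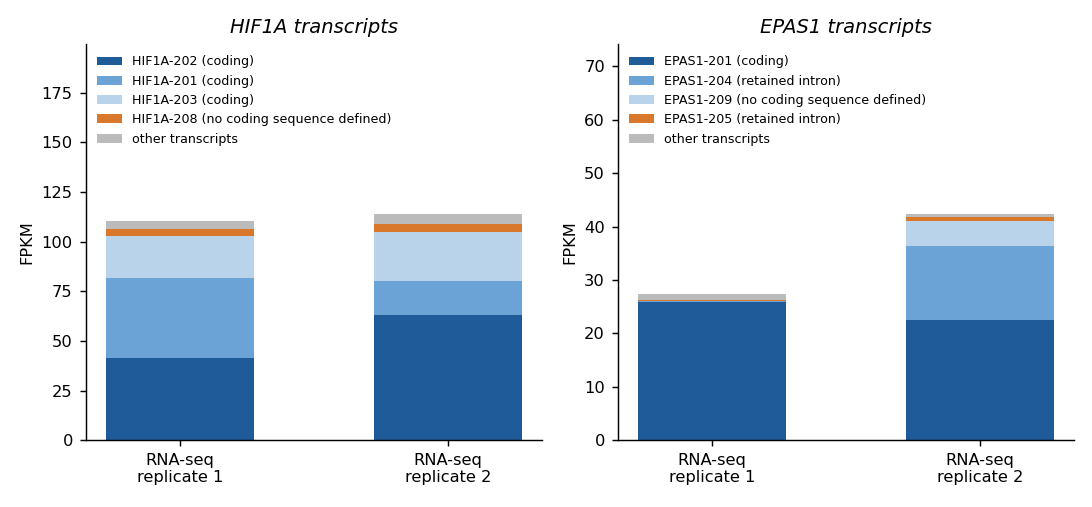
FPKM (vertical axis) of the 4 leading transcripts of *HIF1A* (left) and *EPAS1* (right), stacked for each RNA-seq library, with all further transcripts in grey. The *HIF1A* columns reach nearly the same height with a different division, and the *EPAS1* columns differ by EPAS1-204 and EPAS1-209, which are nearly missing in replicate 1.

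Coverage along the exons gave a view of the same genes in which the division of reads among transcripts matters less, because coverage was summed over all transcripts of the gene at each exon of the leading transcript. The median over exons was 799 and 764 reads per base for *HIF1A*, 270 and 235 for *EPAS1* and 59.6 and 62.0 for *ARNT* in replicates 1 and 2. By this measure, chosen after the values were seen, *HIF1A* exceeded *EPAS1* 2.96-fold and 3.26-fold, so the libraries lay closer together than in FPKM. These medians are not scaled for depth, so they are compared within a library.

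Single exons fell far below these medians in both libraries. Exon 9 of *HIF1A*, 221 bases long, had a coverage of 9.88 and 11.0, while exon 8 had 860 and 832 and exon 10 had 801 and 739.6. The last exon of *EPAS1*, exon 16 with 2195 bases, had a coverage of 6.53 and 5.98. Its neighbour, exon 15, had 152 and 141, and exon 14 had 287 and 257. *CREBBP* had a low inner exon too, exon 19 with 89 bases, at 4.11 and 3.94. The last exon makes up much of the *EPAS1* transcript, so its low value also lowered the FPKM of EPAS1-201. In each of these 3 exons another annotated transcript of the gene starts or ends. Over the inner exons of the 7 expressed genes, 4 of 38 exons with such an end inside lay below 20% of the median exon in replicate 1 and 2 of 38 in replicate 2, and 0 of 67 exons without one did so in either library. Over all protein-coding genes at this level with at least 5 exons the shares were 5.81% and 5.55% of 23812 exons with such an end and 0.919% and 0.904% of 76409 without. Low exon coverage thus went along with annotated transcript ends across the tables as well as in these genes, and whether it reflects the RNA or the coverage estimate was not tested.

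**Figure D3:**
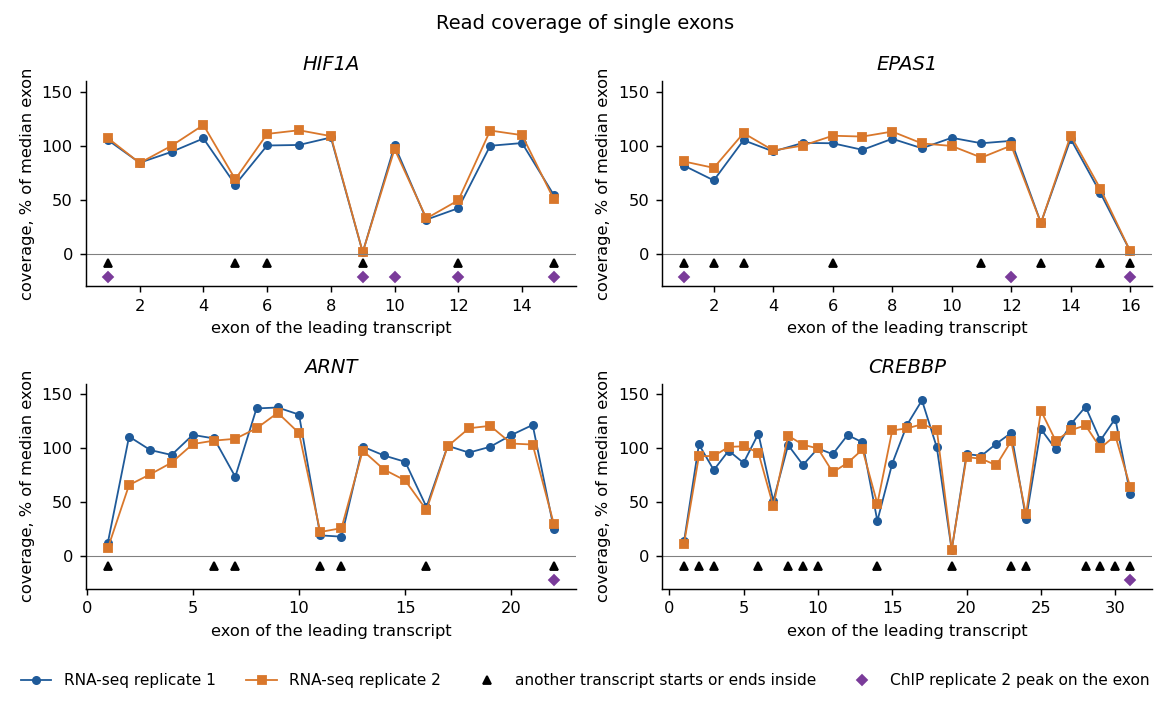
Coverage of each exon of the leading transcript as a percentage of the gene's median exon (vertical axis) for *HIF1A*, *EPAS1*, *ARNT* and *CREBBP* in RNA-seq replicate 1 (circles) and replicate 2 (squares). Triangles mark exons in which another annotated transcript starts or ends, diamonds mark exons with a ChIP replicate 2 peak, and the drops at exon 9 of *HIF1A*, exon 16 of *EPAS1* and exon 19 of *CREBBP* appear in both libraries.

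Both beta subunit genes had lower levels than *HIF1A* and *EPAS1*, and only *ARNT* reached a mean FPKM of 1. *ARNT* (ENSG00000143437), which encodes HIF-1β, the partner shared by the HIF alpha subunits and the aryl hydrocarbon receptor, stood at 7.80 FPKM in replicate 1 and 8.20 FPKM in replicate 2 (8.00 ± 0.284, SD, n = 2), with rank 7358. *ARNT2* (ENSG00000172379), a paralogue best known from neurons, was at 0.505 and 0.349. *ARNT* therefore supplied nearly all beta subunit mRNA, in both libraries. Per length, *HIF1A* exceeded *ARNT* 14.1-fold and 13.9-fold, and *EPAS1* exceeded it 3.50-fold and 5.16-fold. By median exon coverage these ratios were 13.4 and 12.3 for *HIF1A* and 4.53 and 3.79 for *EPAS1*. The alpha subunit genes together reached 16.6 and 18.3 times the FPKM of *ARNT* and *ARNT2* together, a ratio of mRNA levels that says nothing of the proteins.

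The coactivator genes were close to each other and among the steadiest of the group. *EP300* (ENSG00000100393), which encodes the acetyltransferase p300, had an FPKM of 16.0 and 16.3 (16.2 ± 0.215, SD, n = 2). Its paralogue *CREBBP* (ENSG00000005339), which encodes CBP, had 11.8 and 12.0 (11.9 ± 0.151, SD, n = 2). *EP300* was higher in both libraries, 1.36-fold in each, and by median exon coverage 1.18-fold and 1.31-fold. Their absolute log2 ratios between replicates were 0.03 and 0.02, and 88.7% and 89.5% of the genes whose mean FPKM reached 1 had larger ones.

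The CITED genes differed widely. *CITED2* (ENSG00000164442), whose product displaces HIF-1α from p300 and CBP, stood at 92.4 FPKM in replicate 1 and 93.4 FPKM in replicate 2 (92.9 ± 0.668, SD, n = 2), with rank 556. *CITED4* (ENSG00000179862), whose product also binds p300 and CBP, had 6.72 and 5.69 (6.21 ± 0.726, SD, n = 2). *CITED1*, the remaining member of the family, was at 0.176 in replicate 1 and listed at 0 in replicate 2. *CITED2* exceeded *CITED4* 13.8-fold and 16.4-fold, and it exceeded *EP300*, the higher coactivator gene, 5.77-fold and 5.72-fold. In these cells *CITED2* was hence the dominant family member at the mRNA level, and its order against *HIF1A* depended on the measure. *HIF1A* exceeded it 1.19-fold and 1.22-fold in FPKM summed over transcripts and fell below it when the largest transcript alone was counted. By median exon coverage *CITED2* was higher too, at 1100 and 1026 reads per base against 799 and 764 for *HIF1A*. That *CITED2* median rests on 2 exons, at 1841 and 359 in replicate 1 and 1705 and 346 in replicate 2.

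Genes that overlap the members bear on these values, because the sources used here do not state whether strand was used and sense and antisense reads then cannot be told apart. The gene ENSG00000258667, named *HIF1A-AS2* in the expression tables and *HIF1A-AS3* in the annotation used for the peaks, runs antisense to the end of *HIF1A* and had an FPKM of 12.9 and 13.9. *HIF1A-AS1*, antisense to the start of *HIF1A*, was at 0.650 and 0.545, and *EP300-AS1* at 0.276 and 0.372. The non-coding gene ENSG00000258964, which overlaps *HIF1A* on the same strand, was at 0.649 and 0.805. Against *HIF1A* these levels were low, and the processed pseudogene *HIF1AP1* was listed at 0. The 11 further genes overlapping *HIF3A*, *ARNT*, *ARNT2*, *EP300* or *CREBBP* had at most a mean FPKM of 0.144, and 8 of them were listed at 0.

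Near the members, ChIP replicate 1 had 3 peaks, all of them at *HIF1A* or *HIF3A*. Within 1 kb of an annotated start site it had a peak at 1 of the 9 genes, *HIF3A*, against 2.50% of 55859 genes and 8.14% of the 13317 whose mean FPKM reached 1. A peak within 50 kb was found for 2 of 9, *HIF1A* and *HIF3A*, against 11.9% of genes and 23.1% of expressed protein-coding genes. A peak inside the gene was found for 1 of 9, *HIF3A*, against 2.68% of genes and 8.90% of expressed protein-coding genes. For *EPAS1* the nearest replicate 1 peak lay 60457 bp from the gene and for *EP300* 141280 bp. For *ARNT2*, *CITED2*, *ARNT*, *CITED4* and *CREBBP* it lay between 391126 and 2104648 bp away. Counts this small do not set the group apart from other genes, and they show that 7 of the 9 genes had no replicate 1 peak within 50 kb. The sequences of the 3 peaks are shown as the replicate 1 signal closest to any of these genes, on the plus strand of GRCh37, with every ACGTG or GCGTG core, on either strand, in capitals. The first is the central 300 bases of chr14:62217709-62218204, the other 2 are whole.
HIF1A-AS3 start sites, chr14:62217807-62218106: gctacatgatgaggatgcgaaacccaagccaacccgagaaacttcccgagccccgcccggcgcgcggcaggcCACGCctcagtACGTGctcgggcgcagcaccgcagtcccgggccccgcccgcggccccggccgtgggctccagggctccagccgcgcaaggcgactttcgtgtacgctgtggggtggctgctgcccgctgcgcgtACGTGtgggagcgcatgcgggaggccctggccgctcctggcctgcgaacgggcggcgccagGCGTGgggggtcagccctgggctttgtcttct
beyond HIF1A-AS3, chr14:62221999-62222232: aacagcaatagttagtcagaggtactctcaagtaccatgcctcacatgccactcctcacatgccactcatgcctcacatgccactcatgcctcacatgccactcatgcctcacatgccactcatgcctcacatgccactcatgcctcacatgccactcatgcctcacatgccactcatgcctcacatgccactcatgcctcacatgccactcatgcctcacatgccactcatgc
HIF3A intron, chr19:46802262-46802556: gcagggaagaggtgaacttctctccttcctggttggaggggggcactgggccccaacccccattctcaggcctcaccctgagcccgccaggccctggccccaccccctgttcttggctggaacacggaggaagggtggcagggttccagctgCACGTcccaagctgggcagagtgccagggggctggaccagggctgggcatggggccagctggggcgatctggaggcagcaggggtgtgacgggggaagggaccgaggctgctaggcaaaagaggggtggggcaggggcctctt

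The peak of 496 bp begins 2732 bp beyond the annotated end of *HIF1A* and lies over the start of its antisense gene. Of 11 annotated *HIF1A-AS3* transcripts, 8 start inside the peak, and the 5′ end of the gene at position 62217881 on chromosome 14 lies 75 bp from the peak centre. The peak is partly exonic, with 34.9% of its bases in annotated exons and 0 bases in exons of *HIF1A*. It holds 5 cores, 3 of them within 100 bp of the centre, the nearest 60 bp away, and 4 fall in the printed stretch. The RefSeq promoter window of *HIF1A-AS3*, 300 bases given on GRCh38, was found letter for letter on the minus strand at chr14:62217766-62218065 of GRCh37, inside this peak, and has 3 of these cores. A separate RefSeq window named *HIF1A-AS2* matched at chr14:62215758-62216057 and met no peak of either replicate. The next protein-coding gene, *SNAPC1*, which encodes a subunit of the complex that activates small nuclear RNA genes, starts 11182 bp from the peak centre and had an FPKM of 61.5 and 68.4. The peak therefore sat at the antisense start site and away from the *HIF1A* promoter, where replicate 1 had no peak.

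The neighbouring peak of 234 bp is of another kind. It begins 7022 bp beyond the end of *HIF1A*, and its centre lies 7023 bp from the *SNAPC1* start. It overlaps no annotated exon and holds 0 cores. Its sequence is a tandem repeat with a period of 18 bases, and 80.6% of its bases match the base 1 period before. Repeats this regular, with at least 80% of bases matching at a period of 2 to 60 bases, were found in 6 of 1661 replicate 1 peaks (0.361%) and in 31 of 16648 replicate 2 peaks (0.186%). How many reads such a repeat gathers cannot be read from peak positions, and the part of the repeat in this peak was not tested.

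The *HIF3A* peak of 295 bp lies in an intron, 2110 bp downstream of the 5′ end of the gene. Within 1 kb upstream of the peak lie 7 annotated start sites, positions 46801555 to 46801715 on chromosome 19, the nearest 694 bp from the peak centre. The peak contains 0 exon bases and a single core, ACGTG on the minus strand at 46802414 to 46802418, 7 bp from the peak centre. *HIF3A* was nearly silent in the RNA-seq. Of 1394 genes with a replicate 1 promoter peak, 22.2% had a mean FPKM below 1 and 10.8% below 0.1. By comparison, only 23.1% of all genes and 59.7% of protein-coding genes reached a mean FPKM of 1. Low levels were thus less common among genes with such a peak than among genes at large. The call of a promoter peak depended on the alternative start sites, since the peak is over 1 kb from the 5′ end of the gene.

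Replicate 2 had 17 peaks, inside 7 of the 9 genes. Overlap with a peak of the other replicate was found for 0 of the 3 replicate 1 peaks, against 20.4% of all 1689, and for 0 of these 17, against 1.96% of all 16953. Both counts of 0 are near these shares for so few peaks. Within 1 kb of a start site replicate 2 had a peak at 4 of 9 genes, *HIF1A*, *EPAS1*, *CITED2* and *EP300*, against 9.72% of 55859 genes and 20.8% of the expressed ones. With the 5′ end of each gene as its only start site this count was 2, against 6.58% of all genes and 9.51% of the expressed ones. With peaks free of exon bases it was 0, but such promoter peaks were rare at any gene (0.442% of all and 0.736% of expressed genes). A promoter peak in both replicates was found at 0 of 9 genes, against 0.779% of all genes and 2.68% of expressed ones. A peak anywhere in the gene was found for 7 of 9, against 19.2% of all genes and 53.3% of expressed protein-coding genes. The same 7 were those with a replicate 2 peak within 50 kb, against 52.1% and 80.0%, so nearness to a replicate 2 peak did not set these genes apart. Without replicate 2, *HIF3A* was the only gene of the group with a promoter peak, and without replicate 1 it was not among them.

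All 17 replicate 2 peaks touched exons of their gene's leading transcript, and each had at least 95.0% of its bases in exons. Most replicate 2 peaks at any gene touched exons too: of all 16953, 18.0% had no exon base. The last exon carried 11 of them, in 7 genes. *CITED2* had a peak of 1395 bp at chr6:139693661-139695055 and *EP300* had a peak of 2492 bp at chr22:41572775-41575266, both in the last exon. *CREBBP* had 3 peaks in exon 31, *ARNT* had 2 in exon 22 and *ARNT2* had 1 in exon 20. *EPAS1* had peaks in exons 1, 12 and 16, and *HIF1A* had peaks in exons 1, 9, 10, 12 and 15. Only the *HIF1A* peak at chr14:62162266-62162518 and the *EPAS1* peak at chr2:46524639-46525099, both on exon 1, lay at the start of the leading transcript.

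The exons under replicate 2 peaks were the long ones. Of the 118 exons of the 7 expressed genes, 12 carried a peak, with a median length of 928 bp against 141.5 bp for the others. All 12 were among the 33 exons of at least 200 bp (36.4%), and 0 of 85 shorter exons had a peak. Over all expressed protein-coding genes these shares were 25.1% of 28612 long exons and 0.755% of 95055 short ones. Last exons carried a peak in 6 of 7 genes here and in 43.0% of 11452 genes in all, and other exons in 5.41% and 2.65% of cases. Exon 9 of *HIF1A* and exon 16 of *EPAS1*, whose RNA-seq coverage was among the lowest, were among the exons with a replicate 2 peak. Whether their low coverage reflects the RNA or the coverage estimate was not tested. In replicate 1, 0 of these 118 exons met a peak, which is near the share over all exons of expressed protein-coding genes (577 of 123667, 0.467%).

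**Figure D4:**
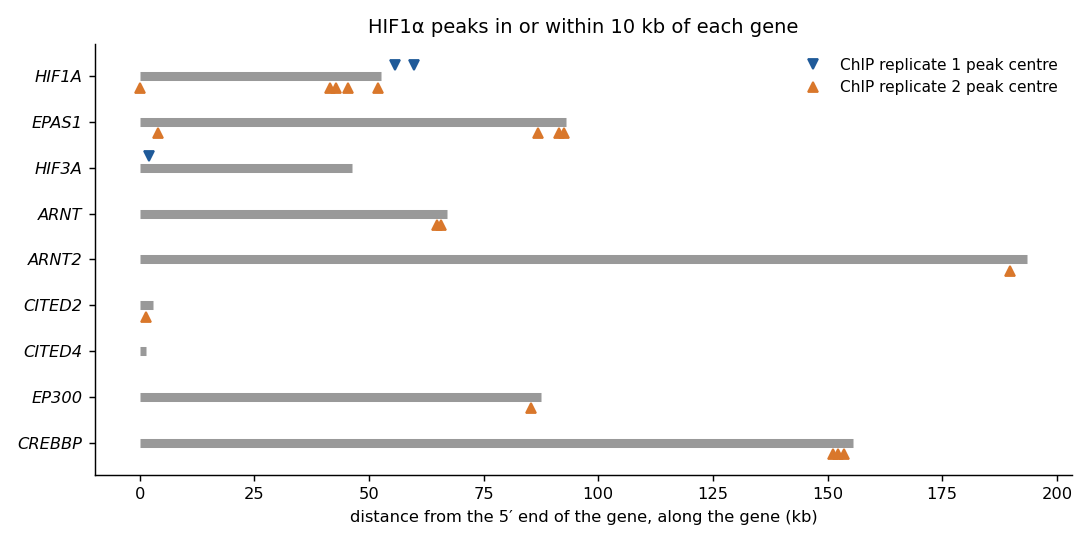
Peak centres of ChIP replicate 1 (triangles pointing down) and replicate 2 (triangles pointing up) along each gene, as distance in kb from the annotated 5′ end (horizontal axis), with the gene as a grey bar. Most replicate 2 peaks lie towards the 3′ ends, and the 3 replicate 1 peaks lie past the end of *HIF1A* and near the start of *HIF3A*.

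The core was counted in the peaks of these genes beside all peaks of the same replicate. It lay within 100 bp of the centre in 5 of 17 replicate 2 peaks, against 26.6% of all replicate 2 peaks, and in 2 of the 3 replicate 1 peaks, against 86.1%. Anywhere in the peak it was found in 11 of 17 replicate 2 peaks, against 48.8% of all, and again in 2 of 3 in replicate 1, against 89.3%. RefSeq promoter windows of 300 bases were available for 8 of the 9 genes, and 6 of the 8 had a core in at least 1 window, against 52.4% of 27305 genes. These were *HIF1A*, *EPAS1*, *HIF3A*, *CITED2*, *CITED4* and *CREBBP*, while the windows of *ARNT* and *EP300* had none. All 14 windows of these genes matched GRCh37 exactly and only once.

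Other genes of the pathway were set beside the members as lists. Of 45 further genes, with *CITED1* included and *EGLN3*, which is in more than 1 list, counted once, 39 had a mean FPKM of at least 1. The HIF hydroxylases and the VHL complex, which hydroxylate HIFα and pass it to the proteasome, passed this level in 9 of 9 cases, with a median of the mean FPKM of 13.3 against 11.9 for the HIF subunits and coregulators. The prolyl hydroxylase gene *EGLN1* was at 36.4 and 38.6 and *EGLN3*, also a known target, at 5.80 and 4.97. *VHL*, which encodes the substrate receptor of the ubiquitin ligase, was at 9.77 and 8.69, and *HIF1AN*, whose product FIH blocks binding of p300 and CBP, at 11.8 and 11.6. Replicate 1 had a promoter peak at 3 of these 9 genes, *EGLN1*, *HIF1AN* and *RBX1*, against 8.14% of expressed genes. Replicate 2 had such a peak at 2 of 9, *EGLN1* and *EGLN2*, against 20.8%. *EGLN1* thus had one in both replicates, 1 of 9 against 2.68% of expressed genes.

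Among other coactivators linked to HIF, 13 of 13 reached an FPKM of 1, with a median of 11.5. *PKM*, the pyruvate kinase gene, was the highest (852 and 747) and the only one with a promoter peak in replicate 1, 1 of 13 against 8.14% of expressed genes. Replicate 2 had a promoter peak at 5 of 13, *NCOA2*, *KAT2A*, *KAT5*, *SMARCA4* and *PKM*, against 20.8%. *PKM* thus had one in both replicates, 1 of 13 against 2.68% of expressed genes. The mediator subunit gene *MED1* was at 20.3 and 22.3, *SMARCA4*, an ATPase of chromatin remodelling, at 28.0 and 28.1, and the acetyltransferase gene *KAT2B* was lowest at 1.82 and 2.24. *EP300* and *CREBBP* thus lay in the middle of this range.

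Of 11 other bHLH-PAS genes, the family to which the HIF subunits and ARNT belong, 6 reached an FPKM of 1 and the median was 1.58. The circadian partner gene *ARNTL2* was highest, at 11.2 and 11.0, above *ARNT* in both libraries, followed in mean level by *CLOCK* at 5.98 and 7.40 and *AHR*, the aryl hydrocarbon receptor gene, at 6.42 and 5.22. In this family 0 of 11 genes had a promoter peak in either replicate, against 2.50% of all genes for replicate 1 and 9.72% for replicate 2, so the absence is no mark of the family. No other family member came near *HIF1A* or *EPAS1* in level.

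The 12 textbook HIF target genes had the highest median level of these lists, 77.2, and each of the 12 reached a mean FPKM of 1. Replicate 1 had a promoter peak at 9 of them, replicate 2 at 8 and both at 7, among them *VEGFA* (87.4 and 86.7), the growth factor of new vessels, *SLC2A1* (196 and 184), a glucose transporter gene, and *PDK1* (14.9 and 16.2), which restrains pyruvate dehydrogenase. Among all expressed genes these shares were 8.14% for replicate 1, 20.8% for replicate 2 and 2.68% for both. Such genes are called targets because HIF binds near them, so their count is no independent finding.

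**Figure D5:**
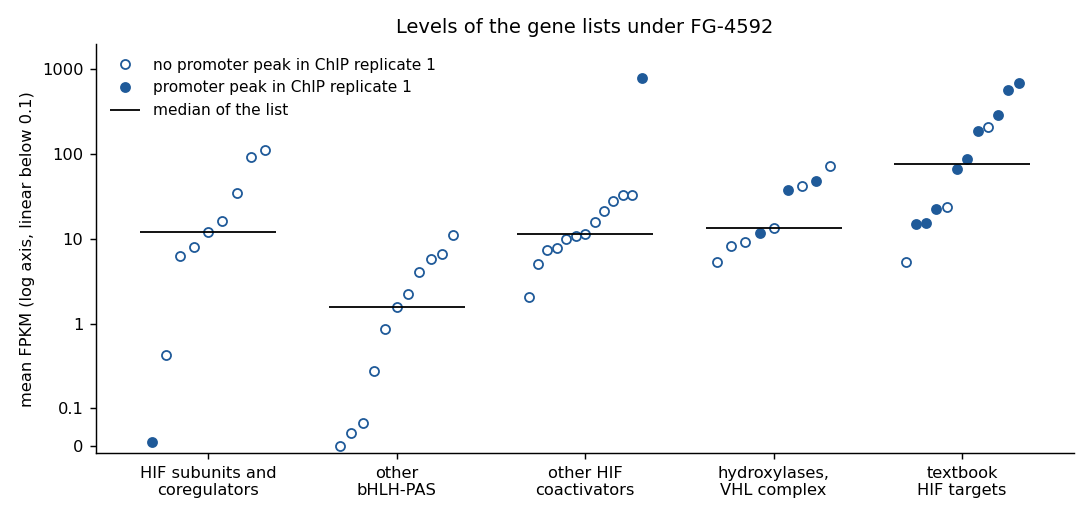
Mean FPKM of both RNA-seq libraries (vertical axis, logarithmic above 0.1) for every gene of 5 lists, with a line at the median of each list. Filled circles have a ChIP replicate 1 peak within 1 kb of a start site: 1 of 9 HIF subunits and coregulators, 0 of 11 other bHLH-PAS genes, 1 of 13 other coactivators, 3 of 9 hydroxylase and VHL complex genes and 9 of 12 textbook targets.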

How the data were processed

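The data were 2 RNA-seq and 2 HIF1α ChIP-seq libraries of HK2 cells given 50 μM FG-4592. For RNA-seq, the authors mapped reads with HISAT2 and ran StringTie 1.3.3 on GENCODE 27, and deposited coverage, FPKM and TPM for each transcript. The methods name hg19, the submitters' processing notes also GRCh38, and the coordinates are those of GRCh38. For ChIP-seq, the deposited files hold a MACS2 peak list for each replicate, and the authors' aligner was Bowtie2 (hg19), with reads of several matches left out; the version, threshold and control are not given in the sources used here. The deposited peak lists hold positions with no score, so the depth behind them is unknown.

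The level of a gene was the FPKM sum of its transcripts. The 2 builds were joined by Ensembl identifier, and positions were never converted. Peaks were set against GRCh37 and GENCODE 44 mapped to it, with 55859 genes in both annotations. A promoter peak overlapped the 1 kb on either side of any annotated start site. An exon's coverage was that of all transcripts of its gene, weighted by overlap. Peaks on unplaced contigs and the mitochondrial chromosome were left out of the search for cores.

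All libraries share 1 condition, so there is no test between conditions, and lists are described by counts beside all genes. The members and lists were chosen with earlier results of these data known. Genes named are the members, genes overlapping them, the lists and markers, and genes nearest to a peak near a member; 1 marker of the list is not reported here. Alternatives covered the transcripts counted, TPM, the FPKM minimum, the pseudocount, promoter windows and start sites, peaks without exon bases, overlap between replicates, distances, the window for cores and leaving out each replicate. The code was tested on simulated data. Computation used samtools 1.23.1, pysam 0.24.0, pandas 2.3.3 and numpy 2.4.6 under Python 3.11.15, and figures matplotlib 3.10.9.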

Additional observations from a re-analysis of the deposited data

How the results depend on the processing

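No paired analysis was possible because all libraries share a single condition and no result comes from a test. The median of the mean FPKM over the 9 genes was 11.9; it was 7.33 with the largest transcript of each gene, 11.0 with coding transcripts only, and 11.8 to 12.0 with either library left out. Gene by gene, 7 of 9 means moved by more than 1 SD of the 2 libraries with the largest transcript, and 7 of 9 with coding transcripts only. The HIF1A to EPAS1 ratio of 3.36 became 2.21 with the largest transcript and 4.34 with coding transcripts, and ran from 2.69 to 4.04 with either library left out. With median exon coverage, chosen after seeing the data, it was 3.11. The count of 7 genes at an FPKM of 1 was also 7 at minimums of 0.5 and 5, and 8 with a TPM of 1. The median absolute log2 ratio of 0.05 was 0.07 with a pseudocount of 0.1 and 0.08 in TPM.

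Promoter peaks of ChIP replicate 1 went from 1 gene to 0 with windows of 500 bp or the 5′ end of the gene only, and to 2 with 10 kb. For replicate 2, 4 genes became 3 with 500 bp, 5 with 3 kb, 6 with 10 kb, 2 with the 5′ end only and 0 without exonic peaks. The count for both replicates, 0, became 1 with 10 kb (*HIF1A*), and 1 to 4 with either replicate alone. Peaks with a core numbered 7 of 20 near the centre and 13 anywhere. The cause of these moves was not tested, beyond what each setting counts. The tables hold no read counts, so no interval limits the lowest values, such as those of *HIF3A*, and peaks without scores allow no stricter threshold.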
